A study of Mus musculus with 18 samples.

Results

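Prostates of mice carrying the Elac2 A537T variant were compared with those of wild-type (WT) mice at 10 weeks of age, using 6 of the 18 RNA-seq libraries of the series. The 3 A537T libraries (16AF, 17AF and 18AF) and the 3 WT libraries (10AF, 11AF and 12AF), each from 1 mouse, stand in 1 table of 55469 genes, of which 15131 averaged 10 or more normalized counts across these 6 libraries and were tested. The A537T mice were homozygous for the Ala537Thr substitution in the whole body, introduced by CRISPR-Cas9 genome editing. All were males on the strain labelled C56NL/6N, matched for age and litter. Total RNA of their ventral and lateral lobes was sequenced after the seminal vesicles, bladder, urethra and adipose tissue had been dissected away. The same WT mice are the controls of a knockout line (KO), in which Cre under the probasin (Pb) promoter removes Elac2 in the prostate. A second table holds A537T and WT mice of 30 weeks, which are other animals. A normalized count is the number of reads of a gene divided by a size factor for its library, and the 6 libraries held 7779419 to 10231802 recovered reads.

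ELAC2 is the RNase Z of the nucleus and of mitochondria: it cuts the 3′ trailer from precursor tRNAs, and in mitochondria this cut also frees the mRNAs and rRNAs that lie between tRNAs on the same long transcript. The prostate epithelium is a secretory tissue that passes large amounts of protein through the endoplasmic reticulum (ER), where chaperones fold it, disulfide isomerases set its bonds, and misfolded chains are drawn out for degradation (ERAD). When unfolded chains build up, the sensors IRE1, PERK and ATF6 raise the transcription of these genes, in what is called the unfolded protein response.

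Elac2 itself lies at chr11:64979038-65002069 of GRCm38, read from the forward strand, and the codon that A537T replaces is in exon 17 of 25, at chr11:64997968-64997970. The reference coding sequence around it, 93 bases that run across exons 17 and 18, is shown with the alanine codon that the variant replaces in capitals. Gene counts do not show the substitution, so they did not serve as a check of the genotype.
Elac2, A537T codon: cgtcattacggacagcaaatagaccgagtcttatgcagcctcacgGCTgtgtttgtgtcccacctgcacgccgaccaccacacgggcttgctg
Elac2 had normalized counts of 126, 143 and 167 in the WT libraries 10AF, 11AF and 12AF, and of 173, 165 and 158 in the A537T libraries 16AF, 17AF and 18AF. The groups overlapped, with a log2 fold change of 0.19 ± 0.16 (SE, adjusted p = 0.796 in limma). None of the 17 tested genes of tRNA end processing had groups that did not overlap, against 5.58% higher and 6.34% lower over all genes. With shares this low, a count of 0 among 17 genes says little about the list. Their median log2 fold change was -0.07, which turned to 0.06 when libraries were scaled to the same total.

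On the scale log2(normalized count + 1), limma called 0 of 15131 genes (0%) at a Benjamini-Hochberg adjusted p under 0.05, and the smallest adjusted p was 0.0716. At an unadjusted p under 0.05 it gave 973 genes, of which 418 (2.76%) were higher and 555 (3.67%) lower in A537T. This split depended on the scaling, with 610 higher and 393 lower when each library was scaled to the same total, and on 10AF, with 1591 higher and 1428 lower without it. In 844 genes (5.58%) all 3 A537T libraries lay above every WT library, and in 959 (6.34%) all lay below. DESeq2, run on the recovered reads, called 28 genes higher (0.185%) and 62 lower (0.41%), and without 10AF 643 higher and 489 lower, an alternative added with the data in view, while edgeR on the same reads called 0, with 1100 genes at an unadjusted p under 0.05. All p-values measure the spread between these 6 mice. The median log2 fold change over all tested genes was 0.01, and 0.15 when each library was scaled to the same total, so that each change on that scale is to be read against 0.15.

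The libraries differed in which tissues they held, and this is given before the gene results because it moves with many of them. The 37 skeletal muscle genes took 4.12, 6.89 and 13.3% of normalized counts in the WT libraries 10AF, 11AF and 12AF, and 4.61, 3.41 and 1.64% in the A537T libraries 16AF, 17AF and 18AF. The 11 seminal vesicle genes took 4.46% in 10AF, 1.71% in 11AF and 0.000798% in 12AF, and between 0.0399 and 0.201% in A537T. The muscle share was thus highest in 2 WT libraries, and seminal vesicle RNA was above the A537T range in 10AF and 11AF and below it in 12AF.

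The secretory genes of the gland split the WT libraries as well. Tgm4, a transglutaminase of the seminal fluid, had normalized counts of 48909, 3215 and 19.2 in 10AF, 11AF and 12AF, against 36699.6, 43801 and 53123 in A537T. Together with 9530053A07Rik it took 5.22, 0.302 and 0.00064% of the WT libraries and 3.71 to 5.60% of the A537T libraries. Sbp, the spermine-binding protein secreted by the ventral lobe, and Spink1, a protease inhibitor of the seminal fluid, together took 3.39, 12.2 and 13.2% in WT and 7.51 to 9.94% in A537T. By these genes 10AF lay with or beyond the A537T libraries, and 11AF and 12AF lay apart from them. In bulk tissue, fewer cells of a type and less RNA per cell cannot be told apart. The luminal epithelial markers were present throughout, with 17 of 17 tested and a median log2 fold change of 0.13. Without overlap 1 was higher and 1 lower in A537T, against 5.58 and 6.34% of all genes. Krt19, a keratin of simple epithelia, had 1759, 1832 and 2048 normalized counts in WT and 2702, 2445 and 2679 in A537T. Cldn3, a tight junction claudin, had 527, 596 and 543 in WT and 462, 480 and 419 in A537T. Of 10 T cell genes, 0 reached the minimum count.

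**Figure D1:**
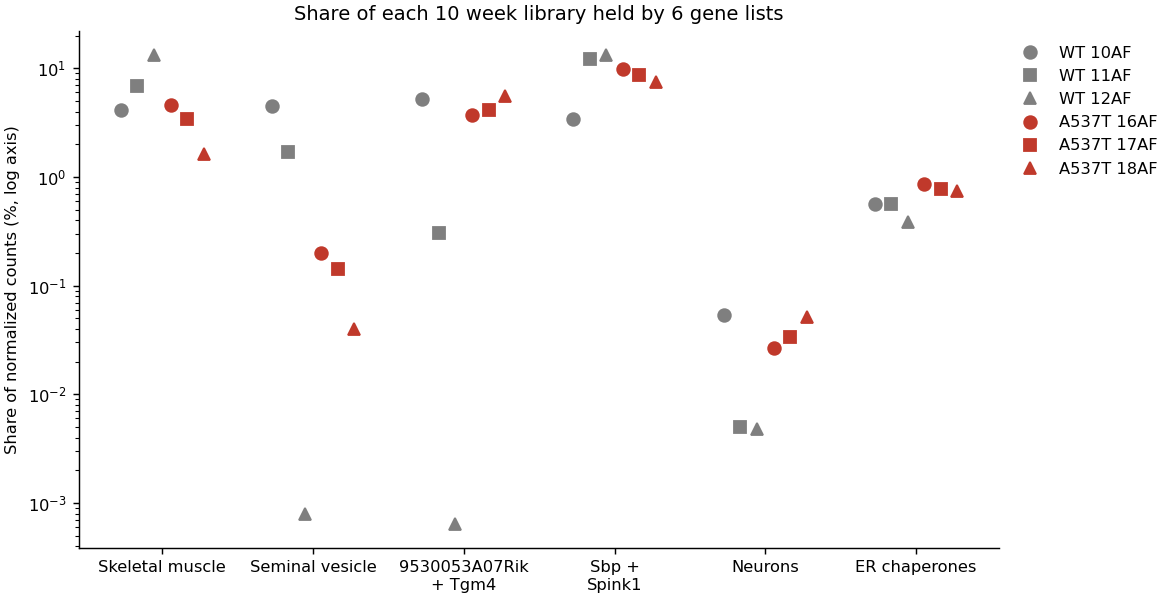
Share of normalized counts (%, log axis) held by 6 gene lists in each of the 3 WT (grey) and 3 A537T (red) libraries at 10 weeks, with 1 point per library. Skeletal muscle runs from 1.64 to 13.3%, seminal vesicle and the pair 9530053A07Rik and Tgm4 fall to 0.000798 and 0.00064% in 12AF, and ER chaperones span 0.750 to 0.853% in A537T and 0.389 to 0.565% in WT.

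Many genes of protein folding in the ER had higher counts in all A537T libraries than in every WT library. The 22 genes of ER chaperones and their co-factors took 0.565, 0.564 and 0.389% of the WT libraries (0.506 ± 0.101%, SD, n = 3) and 0.853, 0.777 and 0.750% of the A537T libraries (0.793 ± 0.0538%). Of these 22 genes, 21 had a positive log2 fold change and 10 had groups that did not overlap, all higher in A537T, against 5.58% of all genes. Their median log2 fold change was 0.34, against 0.01 over all genes tested, and 0.48 against 0.15 with the same total. limma called none of them. At an unadjusted p under 0.05, 9 were higher, against 2.76% of all genes, and DESeq2 called 5 higher, against 0.185%.

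Hspa5, which encodes the chaperone BiP that binds unfolded chains as they enter the ER, had normalized counts of 7362, 8343 and 7616 in WT and of 15906, 13388 and 12552 in A537T. All A537T libraries were well above the WT libraries, whose spread was small, with a log2 fold change of 0.84 ± 0.18 (SE, adjusted p = 0.746 in limma and 0.000202 in DESeq2). Creld2, an ER-resident protein that is induced by ER stress, had 814, 557 and 422 normalized counts in WT and 1685, 1629.8 and 1633 in A537T. Its log2 fold change was 1.52 ± 0.23 (SE, adjusted p = 0.746 in limma and 0.000127 in DESeq2), and the A537T libraries differed among themselves far less than the WT libraries. Sdf2l1, a co-factor that keeps BiP clients soluble, had 462, 437 and 393 in WT and 779, 770 and 715 in A537T, a log2 fold change of 0.81. Manf, a secreted ER stress protein that binds BiP, had 945, 821 and 657 in WT and 1500, 1357 and 1369 in A537T, a log2 fold change of 0.82.

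The other chaperones with groups that did not overlap included Hyou1, the nucleotide exchange factor of BiP, with a log2 fold change of 0.77, and Hsp90b1 (GRP94), with 0.88. Dnajc3 and Dnajb11, which are J-domain partners of BiP, had 0.52 and 0.34, and Calr, the lectin chaperone calreticulin, 0.44. Canx, the membrane-bound partner of calreticulin, overlapped between the groups with 0.27, and Cnpy2 had -0.01. The difference was thus uneven within the list, with the highest log2 fold changes for Creld2, Hsp90b1, Hspa5, Manf, Sdf2l1 and Hyou1.

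Disulfide isomerases differed less as a list. Of 14 tested, 2 had groups that did not overlap, both higher in A537T, against 5.58% of all genes. Pdia4 had 2747, 1984 and 1450 in WT and 4348, 4024 and 3618 in A537T, a log2 fold change of 1.00 ± 0.24 (SE, adjusted p = 0.746 in limma and 0.0529 in DESeq2). Pdia3, which acts with calreticulin on glycoproteins, had a log2 fold change of 0.52. P4hb, the founding member of the family, had -0.01 and overlapped. The median of the list was 0.19.

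Among 21 tested genes of stress sensing and ERAD, 5 had groups that did not overlap, all higher in A537T, against 5.58% of all genes, and the median was 0.13. Syvn1, the ubiquitin ligase HRD1 at the centre of ERAD, had 758, 538 and 254 in WT and 1520.4, 1520.4 and 1362 in A537T, a log2 fold change of 1.64 ± 0.37 (SE, adjusted p = 0.746 in limma and 0.0183 in DESeq2). Derl3, a channel component of the same complex, had a log2 fold change of 0.98 and Sel1l, its scaffold, 0.60. Herpud1, which recruits clients to the complex, had 1705, 1967 and 1516 in WT and 3295, 2883 and 2433 in A537T, a log2 fold change of 0.73. Of the 21 genes DESeq2 called 3, Syvn1, Derl3 and Herpud1, all higher, against 0.185% of all genes. Creb3l2, a membrane-bound transcription factor of the ER stress response, had 921, 819.7 and 499.6 in WT and 1047, 1109 and 965 in A537T, without overlap, a log2 fold change of 0.52 that DESeq2 did not call. The other regulators named here overlapped between the groups, with log2 fold changes of 0.03 for Xbp1, 0.06 for Atf4, 0.13 for Ddit3 and for Eif2ak3 (PERK), -0.23 for Ern1 (IRE1) and 0.32 for Atf6. The gene counts do not separate the spliced form of Xbp1. Of 22 tested targets of the integrated stress response, 3 were higher and 1 lower without overlap, against 5.58 and 6.34% of all genes, and 11 had a positive log2 fold change.

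**Figure D2:**
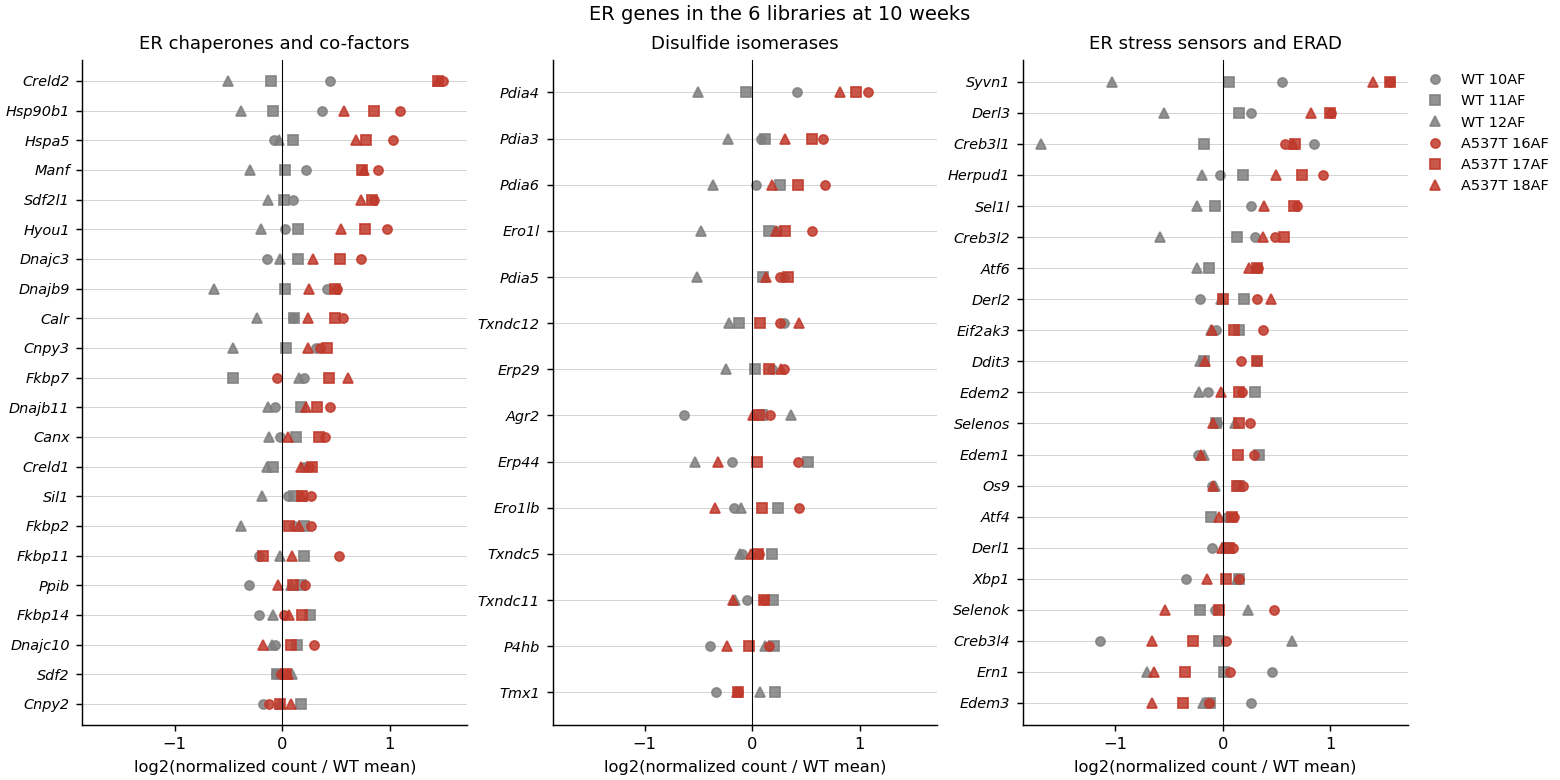
Normalized count of each tested gene of ER chaperones and co-factors (22 genes), disulfide isomerases (14) and ER stress sensors and ERAD (21) as log2 of its ratio to the WT mean, with 1 point per library (WT grey, A537T red). Creld2, Hsp90b1, Hspa5, Pdia4, Syvn1 and Derl3 stand at the top of their lists with all A537T points right of all WT points, and 12AF is often the leftmost WT point.

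Across the 3 ER lists, 17 of 57 tested genes were higher in A537T without overlap and 0 lower, against 5.58 and 6.34% of all genes, and DESeq2 called 8 higher, against 0.185%. Which libraries stood at the ends was similar for these 17 genes. Among the WT libraries 12AF was the lowest in 15 of them, and among the A537T libraries 16AF was the highest in 15 and 18AF the lowest in 14. The muscle score of the library, used as a covariate, left the chaperone median at 0.33, and the seminal vesicle score left it at 0.34. With the summed level of Tgm4 and 9530053A07Rik as covariate, which was added once the values had been seen, it was 0.23. Without 12AF the median was 0.20 and without 10AF it was 0.40.

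Outside the ER, the cytosolic chaperones had a median of 0.22 over 20 tested genes, with 5 higher without overlap against 5.58% of all genes. Hsp90aa1, the inducible cytosolic HSP90, had 1987, 2173 and 2257 in WT and 3588, 3223 and 3057 in A537T, a log2 fold change of 0.62 ± 0.14 (SE, adjusted p = 0.746 in limma and 0.00847 in DESeq2). Hsph1, a nucleotide exchange factor of HSP70, had 1.07, and Stip1, which links HSP70 to HSP90, 0.46. The 10 chaperones and proteases of mitochondria had a median of -0.13, which was 0.01 with the same total, and Hspd1 and Hspa9, the mitochondrial HSP60 and HSP70, had 0.01 and -0.32 with overlapping groups. The lists of cytosolic and mitochondrial chaperones were chosen after the values were seen.

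The sequences before the start sites of the ER genes were searched for the ER stress response element (ERSE), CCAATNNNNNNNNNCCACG, and its variant ERSE-II (ATTGG and CCACG separated by 1 base), which are known binding sites of ATF6 and XBP1 with their partner NF-Y. On both strands of the 250 bases before the start site, an ERSE was present in 37 of 32851 RefSeq promoters (0.113%) and an ERSE-II in 10 (0.0304%). The ERSE was present in 6 of 19 ER chaperones with a promoter sequence (Calr, Canx, Creld2, Dnajc3, Hsp90b1 and Hspa5), in 1 of 11 disulfide isomerases (Pdia6) and in 2 of 18 genes of stress sensing and ERAD (Derl3 and Syvn1). Herpud1 had an ERSE-II. Pdia4, Manf, Sdf2l1 and Hyou1, which also had high log2 fold changes, were not among the genes with a match. Canx and Pdia6, whose groups overlapped, were. The 5 promoters below belong to members picked for both a match and a high log2 fold change, with the matches in capitals. They are given 5′ to 3′ on the strand of the gene in GRCm38.p6 and end at the base before the start site.
Hspa5, chr2:34771840-34772089, forward strand: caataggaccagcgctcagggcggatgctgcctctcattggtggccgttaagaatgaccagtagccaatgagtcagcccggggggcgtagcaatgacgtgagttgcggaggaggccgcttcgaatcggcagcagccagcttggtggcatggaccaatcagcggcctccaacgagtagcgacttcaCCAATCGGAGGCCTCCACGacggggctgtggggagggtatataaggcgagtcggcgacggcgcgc
Creld2, chr15:88819396-88819645, forward strand: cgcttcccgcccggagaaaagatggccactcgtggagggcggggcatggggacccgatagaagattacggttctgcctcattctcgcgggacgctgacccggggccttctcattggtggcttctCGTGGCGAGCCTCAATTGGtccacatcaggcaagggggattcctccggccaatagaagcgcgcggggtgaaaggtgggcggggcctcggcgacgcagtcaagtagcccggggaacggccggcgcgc
Hsp90b1, chr10:86705445-86705694, reverse strand: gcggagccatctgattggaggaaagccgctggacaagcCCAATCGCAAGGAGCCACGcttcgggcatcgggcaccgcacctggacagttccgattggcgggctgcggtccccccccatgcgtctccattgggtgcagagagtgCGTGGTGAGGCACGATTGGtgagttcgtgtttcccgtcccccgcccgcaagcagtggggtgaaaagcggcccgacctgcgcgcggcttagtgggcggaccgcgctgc
Syvn1, chr19:6046326-6046575, forward strand: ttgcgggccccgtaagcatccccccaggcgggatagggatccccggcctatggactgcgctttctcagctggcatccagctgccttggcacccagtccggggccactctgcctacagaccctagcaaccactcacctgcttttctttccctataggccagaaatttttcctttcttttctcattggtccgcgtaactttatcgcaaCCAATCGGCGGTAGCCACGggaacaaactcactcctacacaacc
Herpud1, chr8:94386179-94386428, forward strand: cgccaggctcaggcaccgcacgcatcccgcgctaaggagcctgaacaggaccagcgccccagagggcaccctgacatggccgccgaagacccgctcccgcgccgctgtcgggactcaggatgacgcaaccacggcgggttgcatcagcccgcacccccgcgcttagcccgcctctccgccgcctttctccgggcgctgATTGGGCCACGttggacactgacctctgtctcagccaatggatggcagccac
The match of Hspa5 lay 47 to 65 bases before the start site and that of Syvn1 26 to 44, while Hsp90b1 held 2 matches, 1 on each strand. Of all tested genes, 16 had an ERSE in this window, and 9 of them were higher in A537T without overlap and 2 lower, against 5.58 and 6.34% of all genes, with a median log2 fold change of 0.45. Of these 16, 9 belong to the ER lists and repeat values of the lists above, with 7 higher without overlap, 0 lower and a median of 0.84. Of the other 7, 2 were higher and 2 lower without overlap, with a median of 0.13. Among these 7 were Alg12, a mannosyltransferase of the ER, at 0.60 and Acacb, an acetyl-CoA carboxylase, at -0.95. The value furthest from 0 among all 16 was that of Xlr3b, which is not on the ER lists and belongs to a family of similar copies, so that its count is uncertain, with 36.3, 104.6 and 81.0 in WT and 2.13, 8.56 and 17.2 in A537T, a log2 fold change of -3.07 (adjusted p = 0.746 in limma and 0.00778 in DESeq2). A match describes these letters only, and whether a factor bound there was not measured.

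At 30 weeks, in other mice, most ER chaperones had log2 fold changes below 0. The chaperone median was -0.34, with 12 of 22 genes lower and 1 higher in A537T without overlap. Of all 15131 genes tested at 10 weeks, 1386 were lower and 1324 higher without overlap at 30 weeks. All 17 genes of the ER lists that were apart at 10 weeks had a log2 fold change below 0. Over the genes tested at both ages, 7282 of 14292 did. Creld2 had 609, 1062 and 937 in WT and 432, 707 and 381 in A537T, and Sdf2l1 had 638, 825 and 699.7 in WT and 434, 624 and 343 in A537T. Tgm4 also differed between the 30 week libraries. It had 45.7, 64608 and 44044 normalized counts in WT and 1009, 2558 and 633 in A537T, so that in the library lowest for Creld2 among the WT mice Tgm4 was nearly absent. Svs2, a seminal vesicle protein, was at 383934 and 493744 in 2 of the 3 A537T libraries of 30 weeks and at most 8.91 in the other 4 libraries of that table. The part of these tissues in the difference between ages was not tested. In the KO mice of 10 weeks, which share the WT libraries, the log2 fold changes of the same genes were 1.48 for Creld2, 0.51 for Hspa5, 0.59 for Manf, 1.01 for Pdia4 and -0.22 for Herpud1, beside 1.52, 0.84, 0.82, 1.00 and 0.73 in A537T.

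The skeletal muscle list was lower in A537T, with 37 of 37 log2 fold changes below 0 and a median of -1.66. Without overlap 10 genes were lower, against 6.34% of all genes, and DESeq2 called 6 lower, against 0.41%. With the muscle score as covariate, which is built from these genes, the median was -0.087. Myh4, the fast myosin heavy chain, had normalized counts of 44432, 81039 and 206022 in WT and 48992, 33498 and 12201 in A537T, and the groups overlapped. Csrp3, a Z-disc protein of striated muscle, did not overlap, with 359, 846 and 1705 in WT and 98.9, 91.3 and 35.3 in A537T. Its log2 fold change was -3.53 ± 0.61 (SE, adjusted p = 0.746 in limma and 2.8e-07 in DESeq2), and it was still -2.09 with the muscle covariate. Hspb7, a small heat shock protein of heart and muscle that is not on the list, had -2.03 without and -1.42 with the covariate. Both genes thus had values further below 0 than the median of the list once the score was in the fit.

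Other lists moved with the muscle score. The 79 nuclear-encoded subunits of oxidative phosphorylation had a median of -0.51, with 25 lower without overlap against 6.34% of all genes, and -0.06 with the covariate. The 11 mitochondrial mRNAs had -0.48 without and -0.03 with it. Smooth muscle genes had 0.89 without and -0.19 with the covariate, and nerve genes 0.70 and -0.63. Basal epithelial genes turned from 0.47 to about 0, with a share of normalized counts that was highest in 18AF (0.0507%), the library with the least skeletal muscle. The urothelial genes, of which Upk2 and Upk3a encode plaque proteins of the bladder lining, had 1.74 and 0.38, and Upk3a had 51.8, 0 and 1.07 in WT and 6.38, 166 and 564 in A537T. Collagen and fibroblast genes had a positive log2 fold change in 14 of 14, with a median of 0.36 without and 0.11 with the covariate. For these lists the A537T effect and the makeup of the dissected tissue cannot be told apart. Over the ER chaperones the same covariate left the median at 0.33. That median was 0.23 with the summed level of Tgm4 and 9530053A07Rik as covariate and 0.20 without 12AF. The part of tissue makeup in the ER chaperone values was not tested.

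**Figure D3:**
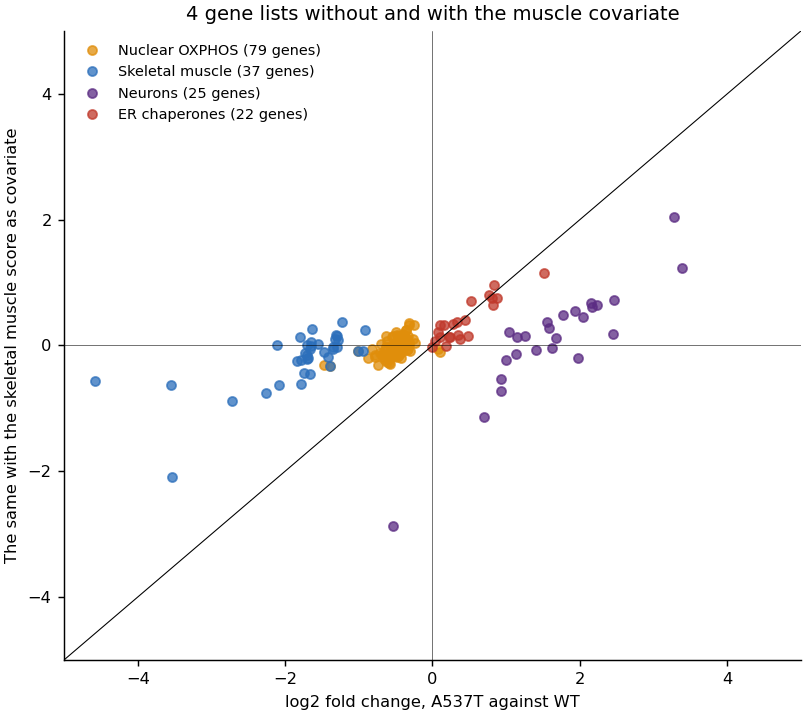
log2 fold change of A537T against WT for each tested gene of 4 lists, without (x) and with (y) the skeletal muscle score of the library as covariate, and the line of equal values. Skeletal muscle genes (median -1.66) and nuclear OXPHOS genes (-0.51) gather around the horizontal line at 0 with the covariate, apart from Csrp3 at -2.09, ER chaperones stay near the line of equal values, and most neuronal genes lie below it, with a median of 1.63 without and 0.18 with the covariate.

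Several genes of the circadian clock were lower in all A537T libraries than in every WT library. This list was chosen after the values were seen. Of 19 tested, 8 were lower without overlap and 1 higher, against 6.34 and 5.58% of all genes, and DESeq2 called 5 lower, against 0.41%. Dbp, an output transcription factor of the clock, had normalized counts of 79.8, 120.2 and 101 in WT and 30.9, 28.5 and 50.4 in A537T, a log2 fold change of -1.46 ± 0.29 (SE, adjusted p = 0.746 in limma and 0.0223 in DESeq2). Nr1d1 and Nr1d2, the REV-ERB repressors that hold down Arntl, showed the same pattern. Nr1d1 had 199.9, 189 and 229 in WT and 109.6, 117 and 87.8 in A537T, a log2 fold change of -0.97, and Nr1d2 had 517, 498 and 628 in WT and 304, 252 and 345 in A537T, a log2 fold change of -0.87. Tef, which binds the same sites as DBP, had -0.78. Bhlhe41 and Bhlhe40, repressors of the clock, had -0.94 and -1.09, and Per3, a period protein, -0.87. Bhlhe40 had 217.5, 188.5 and 391 in WT and 133, 112 and 111 in A537T, with 12AF well above the other WT libraries. Arntl (BMAL1), which these repressors oppose, was higher without overlap by a small margin, with 0.30, and Clock, Per2, Cry1 and Cry2 overlapped between the groups.

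With the muscle covariate the clock values of Dbp, Nr1d1, Nr1d2 and Per3 were -1.62, -0.75, -0.84 and -1.22. At 30 weeks the same genes had 0.60, 0.06, 0.62 and 0.23, and Nr1d2 was higher in A537T without overlap. The median of the list was -0.29 at 10 weeks and 0.06 at 30 weeks. With the muscle covariate the 10 week median was -0.04, and Bhlhe40 had -0.63. The part of tissue makeup in the clock values was not tested. The hour at which the mice were killed is not given in the sources used here, so genotype and time of day cannot be told apart for these genes.

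**Figure D4:**
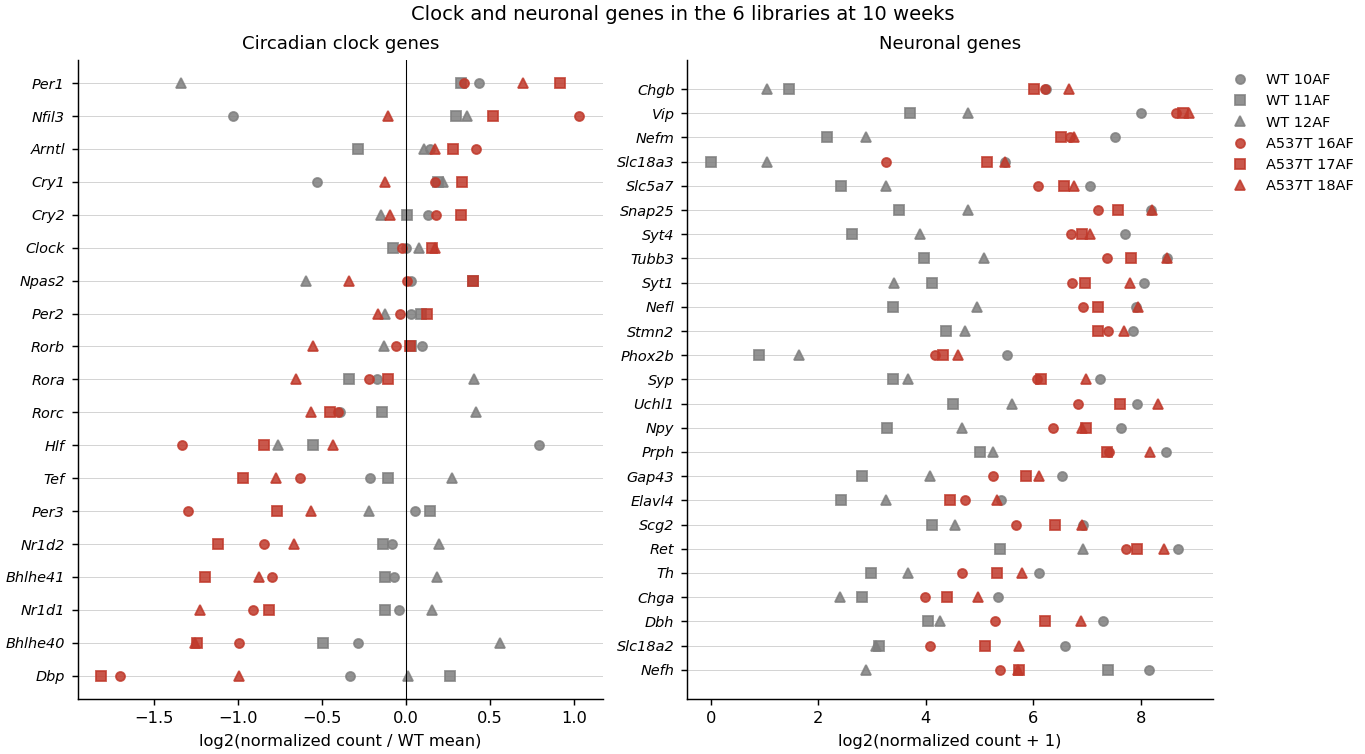
Left, normalized count of 19 clock genes as log2 of its ratio to the WT mean. Right, log2(normalized count + 1) of 25 neuronal genes. Points are the 3 WT (grey) and 3 A537T (red) libraries at 10 weeks. Dbp, Nr1d1, Nr1d2, Bhlhe40, Bhlhe41, Per3 and Tef have all A537T points left of all WT points, and for 24 of 25 neuronal genes WT 10AF lies at or right of the lowest A537T point, in many right of all of them, while in 24 of 25 genes 11AF and 12AF lie left of every A537T point.

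Neuronal genes set WT library 10AF apart from the other WT libraries. Tubb3, the neuronal tubulin, had normalized counts of 357, 14.7 and 33.0 in WT and of 164, 225 and 358 in A537T. Vip, the vasoactive intestinal peptide of pelvic ganglia, had 256, 12.1 and 26.6 in WT and 401, 441 and 475 in A537T. In 24 of the 25 tested genes of autonomic neurons 11AF and 12AF lay below every A537T library, and in 24 of the 25 library 10AF lay at or above the lowest A537T library. The genes took 0.0542, 0.00501 and 0.00484% of the WT libraries and 0.0266 to 0.0517% of the A537T libraries. Without 10AF limma called 50 of 15131 genes, 45 higher and 5 lower, and 11 of the 50 are on this neuronal list. In 40 of the 50, library 10AF lay at or past the nearest A537T library. As limma called 0 genes with 10AF included, the selection itself favours such genes, and the count of 40 is no separate evidence about 10AF. The 50 also held Creld2, Hspb7, Csrp3, Plac9b and Hsph1, and the immediate early genes Fos and Egr1. Fos had 194, 17.3 and 36.2 in WT and 406, 382 and 327 in A537T, with no overlap. The neuronal list was chosen after the values were seen.

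Under the rule for the genes of smallest p, the 12 higher genes were Plac9b, Creld2, Sdf2l1, Tmem254b, Slc25a25, Trf, G0s2, Manf, Ier5, Mtmr4, Caprin2 and Trpv4. These 12 were picked for smallest p and no overlap in the same 6 libraries, so further fits to those libraries are not independent support. DESeq2 called 10 of them, against 0.185% of all genes called higher. In all 12 the unadjusted p stayed under 0.05 with the muscle covariate. Trf, the iron carrier transferrin, had 760.2, 623 and 699.8 in WT and 1132, 1091 and 1239.9 in A537T, a log2 fold change of 0.73 ± 0.13 (SE, adjusted p = 0.746 in limma and 0.00562 in DESeq2). Slc25a25, an ATP and phosphate carrier of the inner mitochondrial membrane, had 0.94, and G0s2, an inhibitor of triglyceride lipase, 0.80. Trpv4, a calcium channel, had 37.3, 20.8 and 10.7 in WT and 73.4, 116 and 89.8 in A537T, a log2 fold change of 2.12 that was 1.37 with the muscle covariate. At 30 weeks 7 of the 12 had the same sign, and Plac9b and Ier5 were again higher without overlap, while Sdf2l1 and Manf were lower.

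The 12 lower genes were Hoxd8, Hspb7, Ramp1, Csrp3, Nr1d1, Shisa4, Gstm5, Nr1d2, Ptpn4, Dbp, Bhlhe41 and Ccdc162. DESeq2 called all 12, against 0.41% of all genes called lower, in the same libraries from which they were picked. Hoxd8, a homeobox factor of the posterior body, had 165, 136 and 168 in WT and 68.1, 59.9 and 43.4 in A537T, a log2 fold change of -1.45 ± 0.22 (SE, adjusted p = 0.746 in limma and 0.000441 in DESeq2). Its neighbour Hoxd9 had -1.64. At 30 weeks Hoxd8 had 6.42, 29.8 and 12.9 in WT and 189.8, 23.1 and 319.8 in A537T, high in the 2 libraries with Svs2. At 10 weeks Hoxd8 had 168 in 12AF, with 32.0 normalized counts of Svs2, and 165 in 10AF, with 239675. The part of seminal vesicle RNA in the Hoxd8 values was not tested. Ramp1, a co-receptor of the calcitonin gene-related peptide, had 217, 206 and 197 in WT and 97.9, 73.3 and 111 in A537T, a log2 fold change of -1.15. Of the 11 of these genes tested at 30 weeks, 0 had the same sign there.

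Plac9b, the gene of smallest p among the 12 higher and 12 lower genes, belongs to a set of near-identical copies on chromosome 14. It had normalized counts of 50.8, 44.1 and 57.5 in WT and 157, 143 and 143 in A537T, a log2 fold change of 1.53 ± 0.18 (SE, adjusted p = 0.292 in limma and 5.05e-06 in DESeq2). Plac9a (chr14:25887506-25903100) and Plac9b (chr14:26167405-26182480) share an identical transcript of 536 bases, so their reads cannot be assigned with certainty. The sum of Plac9a and Plac9b was 55.1 ± 6.78 in WT and 150 ± 7.13 in A537T (SD, n = 3), without overlap. Near them, between chr14:25923300-25927672 and chr14:26203369-26207041, lie Tmem254a, Tmem254b and Tmem254c, which also share transcripts, and their sum was 143, 191 and 239 in WT and 502, 461 and 440 in A537T. At 30 weeks both sums were again higher in A537T without overlap: Plac9 had 14.4, 36.7 and 1.98 in WT and 136, 89.7 and 102 in A537T, and Tmem254 had 163, 244 and 203 in WT and 301, 308 and 319 in A537T. In the KO mice Plac9b had 62.7, 43.3 and 42.3. Summing the copies thus left these differences in place.

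The 2 genes of smallest adjusted p, Gm20236 and Gm37094, were such a pair too. Gm20236 had 0 in all WT libraries and 100, 74.2 and 38.3 in A537T, and Gm37094 had 47.6, 78.7 and 45.8 in WT and 0 in all A537T libraries. Their transcripts, at chr14:69277601-69282140 and chr14:69495851-69500390, are identical over all 4540 bases, of which the first 80 are shown as the stretch that both share.
Gm20236 and Gm37094: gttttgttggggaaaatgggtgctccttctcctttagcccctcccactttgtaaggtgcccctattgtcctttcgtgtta
In 15 of 15 libraries, the KO and 30 week libraries included, all reads were given to 1 of the pair. The sum overlapped between the groups, with a log2 fold change of 0.24.

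**Figure D5:**
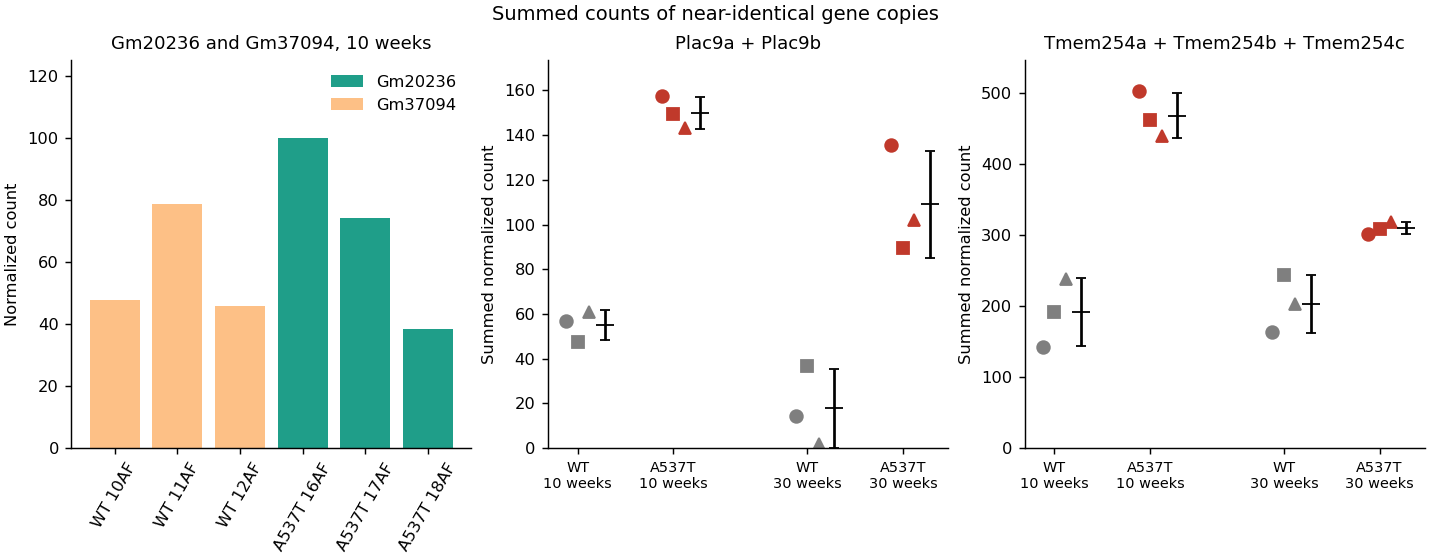
Left, normalized counts of Gm20236 and Gm37094 in the 6 libraries at 10 weeks. Middle and right, summed normalized counts of Plac9a and Plac9b and of Tmem254a, Tmem254b and Tmem254c at 10 and 30 weeks, with 1 point per library and mean ± SD (bars, n = 3). The pair at left changes name between the genotypes at a sum that overlaps, and the sums at middle and right are higher in A537T at both ages.

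Genes of red blood cells, a list chosen after the values were seen, had a log2 fold change above 0 in all 5 tested, with a median of 1.02 and of 1.64 with the muscle covariate. Hba-a1 and Hba-a2, which encode the same alpha globin, summed to 668, 544 and 925 normalized counts in WT and to 1966, 1691 and 1076 in A537T, without overlap. The beta globins Hbb-bs and Hbb-bt summed to 712, 699 and 1229 in WT and to 2244, 1818 and 1214 in A537T, with overlap, and Alas2, the erythroid enzyme of haem synthesis, had 44.5, 52.7 and 54.3 in WT and 80.9, 82.8 and 77.7 in A537T. Adipocyte genes had a median of 0.46, with 4 of 10 higher without overlap against 5.58% of all genes. Cfd, the adipokine adipsin, had 1565, 1710.3 and 1368 in WT and 2617, 2478 and 2181 in A537T, a log2 fold change of 0.65 ± 0.15 (SE, adjusted p = 0.746 in limma and 0.0279 in DESeq2). How much blood and fat the dissected lobes held was not measured.

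Genes that the study's text names mostly overlapped between the groups, and limma and DESeq2 called none of those given here. Sfpq and Nono, partner RNA-binding proteins of paraspeckles, had log2 fold changes of 0.14 and 0.02, and Neat1, the paraspeckle RNA, -0.04. Slirp, which stabilizes mitochondrial mRNAs, was lower without overlap, with 134.6, 120 and 257 in WT and 116, 106 and 90.8 in A537T. Its log2 fold change was -0.63, and -0.10 with the muscle covariate. Hsd17b10, a subunit of mitochondrial RNase P, had -0.23 with overlapping groups. Tst, a mitochondrial sulfurtransferase, had 468, 263 and 180 in WT and 459.6, 454 and 543 in A537T, a log2 fold change of 0.78, and 0.14 with the muscle covariate. Gldc, the glycine decarboxylase, had 31.1, 17.3 and 11.7 in WT and 7.45, 47.6 and 105 in A537T, a log2 fold change of 0.85, and -0.83 with the covariate. Hif3a, a hypoxia-inducible factor, had 0.54 and 0.03 in the same fits. Trp63, the basal cell transcription factor, had 0.47 and Bcl2, an inhibitor of apoptosis, 0.13, both with overlapping groups and both below 0 with the muscle covariate. At 30 weeks Gldc was higher in A537T without overlap, with a log2 fold change of 2.32. Hif3a and Bcl2 had 0.77 and 0.64 there, with overlap.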

How the data were processed

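The authors trimmed the reads with Trim Galore 0.4.1 and cutadapt 1.18, aligned them with STAR 2.7.3a to GRCm38.p6 with nuclear mitochondrial sequence masked, quantified them with Salmon and scaled gene counts with DESeq2 1.26. The deposited signal is a gene count divided by a size factor for each library. Column names carry no replicate. Columns held by both tables of an age were taken as WT, and those held only by the A537T table as A537T. Whole reads were recovered from each column, with 100% of values whole within 0.05 reads, although the step of 18AF is too near 1 for an automatic test. The authors' comparison tables (mean count, shrunken log2 fold change, standard error and s-value) were not used.

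The main test was limma 3.58.1 (R 4.3.3) on log2 of the normalized count plus 1, for genes averaging 10 or more over the 6 libraries (eBayes with a mean trend, Benjamini-Hochberg adjustment, threshold 0.05). A fold change on this scale understates that of low genes. DESeq2 1.42.0 and edgeR 4.0.16 on recovered reads were alternatives, and scripts were tested on simulated data. Alternatives also covered pseudocount 8, minimum counts of 1 and 100, other scalings, no trend, covariates for skeletal muscle, seminal vesicle and, added after the data were seen, Tgm4 and 9530053A07Rik, and leaving out each library.

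The members, the 31 gene lists and the rule for named genes were chosen with earlier results of these data known, and 7 further lists after the values were seen. Named genes were Elac2, the 12 higher and 12 lower genes of smallest p with a mean of at least 50, no overlap and an absolute log2 fold change of at least 0.5, the 3 members of smallest p of each list, all ER genes, genes the study's text names, the 5 most abundant muscle and seminal vesicle genes and 10 genes of the muscle covariate fit. Genes outside the rule, such as Egr1, Alg12, Acacb, Xlr3b, Hoxd9, Slco1a6, Nnt, members of the added lists and the gene copies, were picked with their values known. Of the gene IDs, 54450 matched GENCODE vM21 exactly and 55107 without versions, and 35 mitochondrial entries were named by symbol. Elac2 and copy positions come from that annotation (GRCm38) and promoters from RefSeq (GRCm38.p6). The precision of a count is limited by depth and by 3 libraries per group. Python 3.11.15 with pandas 2.3.3, numpy 2.4.6 and matplotlib 3.10.9 was used.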

Additional observations from a re-analysis of the deposited data

Results flagged for a closer look

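For 14 of the named genes every A537T library lay on one side of every WT library at 10 weeks and on the other side at 30 weeks. The 2 tables were normalized separately and the difference between ages was not tested. In each case the log2 fold change at 10 weeks is given first and that at 30 weeks second. Of the ER genes, Calr had 0.44 and -0.47, Dnajb11 0.34 and -0.12, Dnajc3 0.52 and -0.51, Hsp90b1 0.88 and -0.57, Hyou1 0.77 and -0.44, Manf 0.82 and -0.35, Pdia3 0.52 and -0.43, Pdia4 1.00 and -0.66, and Sdf2l1 0.81 and -0.66. The luminal keratin Krt19 had 0.47 and -0.50.

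In the opposite order, the clock repressor Nr1d2 had -0.87 and 0.62, Plau, the urokinase protease, -2.0 and 4.23, Ramp1 -1.15 and 1.08, and Vldlr, a lipoprotein receptor, -1.55 and 1.04. Plau had normalized counts of 1469, 413 and 132 in WT and 96.8, 97.0 and 130.1 in A537T at 10 weeks. At 30 weeks it had 31.3, 43.6 and 43.5 in WT and 2556, 48.2 and 3379 in A537T, high in the 2 libraries that held Svs2.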

How the results depend on the processing

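limma's count of 0 called genes was 2 with a minimum count of 1, 2 without the mean trend and 20 with Tgm4 and 9530053A07Rik as covariate. DESeq2 called 90, and 1132 without 10AF. That covariate and DESeq2 without 10AF were added with the data in view. Leaving out 1 library gave 0 to 50 calls (50 without 10AF, 1 without 11AF and 2 without 12AF). The 973 genes at an unadjusted p under 0.05 became 545 with a minimum of 100, 1776 with the seminal vesicle covariate, and 464 to 3019 without 1 library (3019 without 10AF, 610 without 11AF, 464 without 17AF and 516 without 18AF). The ER chaperone median of 0.34 was 0.48 with the same total, 0.23 with the Tgm4 and 9530053A07Rik covariate, and 0.20 to 0.40 without 1 library. The skeletal muscle median of -1.66 was -0.087 with its own score as covariate and -2.19 to -1.10 without 1 library. The split of the 973 genes, 418 higher and 555 lower, turned to 610 and 393 with the same total, to 1591 and 1428 without 10AF and to 516 and 507 without 16AF, and that of DESeq2, 28 and 62, turned to 643 and 489 without 10AF. The 2 list medians kept their sign under every alternative run. The cause of the moves was not tested. No paired analysis was possible because the columns carry no replicate numbers.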

Other observations

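Some genes kept their direction at both ages. Of 362 genes that were tested at both ages and whose groups did not overlap at either, 65 were higher and 65 lower in A537T at both, 135 were higher at 10 and lower at 30 weeks, and 97 lower at 10 and higher at 30 weeks. Among those higher at both were immune genes, chosen after their values were seen. Ifi44, an interferon-induced protein, had normalized counts of 14.5, 16.4 and 18.1 in WT and 33.0, 31.4 and 46.4 in A537T at 10 weeks. At 30 weeks it had 7.22, 14.9 and 12.9 in WT and 53.2, 78.1 and 48.2 in A537T. Ifi27l2a had log2 fold changes of 0.95 at 10 and 1.96 at 30 weeks, Cxcl13, the chemokine that draws B cells, 0.95 and 1.41, and Igkc, the kappa light chain constant region, 1.12 and 2.49. As a list, the interferon genes had a median of 0.12 at 10 weeks, with 2 of 21 tested higher without overlap against 5.58% of all genes. Slco1a6, an organic anion transporter, was lower at both ages, with -2.16 and -1.09. DESeq2 called it at 10 weeks (adjusted p = 0.00464), and limma gave an adjusted p = 0.746.

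The table holds 2 overlapping entries for Nnt, the nicotinamide nucleotide transhydrogenase of mitochondria, a gene known to differ between substrains of C57BL/6 mice. The entry ENSMUSG00000116207 had 158, 229 and 325 normalized counts in WT and 0, 144 and 242 in A537T, and the entry ENSMUSG00000025453 had 210.3, 297 and 409 in WT and 448, 272 and 149 in A537T. Library 16AF was thus at 0 for 1 entry and highest of the 6 for the other. At 30 weeks 1 WT library, 2AF, was at 0 for the first entry. Reads of overlapping entries are uncertain, and substrain was not tested. Of the 22 mitochondrial tRNA entries, 21 had 0 reads in all 6 libraries, and mt-Tm had 1 read in 3 of them, so a difference in these was not detectable.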
